A study of Mus musculus with 12 samples.

Results

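The variable (TRBV) and joining (TRBJ) segments of the T cell receptor beta chain were counted in splenic CD4 and CD8 T cells. The members were the 22 TRBV names and 12 TRBJ names in the receptor table, 34 of the 165 V and J names listed there for both chains. A clone was counted once in each cell type in which it had a cell, with the type taken from the authors' annotation of the same cell barcode and mouse. This gave 2697 counts of clones with a TRBV entry, 1747 CD4 and 950 CD8, and 2707 with a TRBJ entry, 1751 CD4 and 956 CD8.

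Spleens of 4 male mice were compared. In the SLE.yaa group, 2 mice came from strain B6.Sle1yaa, a lupus-prone line with the Sle1 interval and the Y-linked autoimmune accelerator Yaa, at a deposited age of 14.9. In the WT group, 2 mice came from strain C57BL/6, at a deposited age of 14.4. The unit of age was not stated, and age differed with the strain. The labels' tag for these groups mentions chimeras, but the sources used here do not say if any mouse was one. White blood cells were enriched by their surface protein CD45 on magnetic beads. Receptor and expression libraries, 1 of each per mouse, were made on the 10x Genomics droplet platform. Values per mouse are given in the order SLE.yaa 1, SLE.yaa 2, WT 1 and WT 2.

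A beta chain is assembled in a developing T cell by joining 1 V, 1 D and 1 J segment, and the joint forms the third complementarity-determining region (CDR3), which mostly touches the presented peptide. The first and second such loops are encoded in the V segment and mostly touch the MHC molecule, which is of class II for CD4 cells and class I for CD8 cells. The TRBJ1 segments lie before the constant gene TRBC1 and the TRBJ2 segments before TRBC2.

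Of the 4001 cells in the receptor table, 2104 were annotated CD4 and 1089 CD8. Another 88 were annotated as other types and 720 were not in the expression table. Cd4 was above 0 in 67.0% to 81.6% of the CD4 cells of a mouse and in 1.17% to 13.7% of its CD8 cells, and Cd8a in 0.288% to 2.36% of CD4 cells and 71.2% to 88.9% of CD8 cells. Both labels were thus borne out by their defining markers, while the B cell gene Cd79a was above 0 in 9.39% to 16.4% of CD4 cells and 4.68% to 13.7% of CD8 cells. Clones with a TRBV entry numbered 394, 294, 511 and 548 in CD4 cells and 194, 136, 278 and 342 in CD8 cells. The table lists at most 2 values per field, and the 402 cells without a TRBV entry all listed 2 TRAV genes. A total of 9 cell barcodes occurred in 2 receptor libraries, and clones were defined within a mouse.

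The sequences of 4 V segments that differed in use between CD4 and CD8 clones are printed, each read from the deposited beta contigs. They run over the 240 bases before the CDR3 and its first codon. TRBV3 and TRBV31 had the smallest adjusted p-values among the genes with higher use in CD4 clones, and here the capitals mark the first CDR3 codon.
TRBV3: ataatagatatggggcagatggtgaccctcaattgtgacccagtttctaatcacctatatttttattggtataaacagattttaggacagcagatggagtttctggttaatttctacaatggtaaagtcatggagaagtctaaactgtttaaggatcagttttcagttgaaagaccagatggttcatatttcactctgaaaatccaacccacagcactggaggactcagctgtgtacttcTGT
TRBV31: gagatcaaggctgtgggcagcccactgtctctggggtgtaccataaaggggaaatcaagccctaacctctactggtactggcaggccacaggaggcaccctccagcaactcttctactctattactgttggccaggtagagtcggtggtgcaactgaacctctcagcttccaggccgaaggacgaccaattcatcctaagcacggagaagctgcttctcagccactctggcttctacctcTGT
TRBV12-1 and TRBV12-2 had the largest differences in the other direction, and in these the capitals mark the 30 of 243 bases at which they differ (87.7% identity).
TRBV12-1: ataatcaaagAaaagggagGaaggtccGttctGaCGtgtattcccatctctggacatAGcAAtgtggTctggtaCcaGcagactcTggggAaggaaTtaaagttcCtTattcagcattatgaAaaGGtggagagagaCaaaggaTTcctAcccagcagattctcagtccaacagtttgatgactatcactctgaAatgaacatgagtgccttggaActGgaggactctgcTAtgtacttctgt
TRBV12-2: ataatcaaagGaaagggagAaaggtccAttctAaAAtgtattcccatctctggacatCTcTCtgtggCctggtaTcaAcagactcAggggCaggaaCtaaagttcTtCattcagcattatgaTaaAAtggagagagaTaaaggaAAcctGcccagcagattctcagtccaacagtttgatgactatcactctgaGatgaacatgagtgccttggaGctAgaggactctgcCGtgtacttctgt
Every contig of these genes that reached this length carried its sequence exactly, 349 of TRBV3, 182 of TRBV31, 135 of TRBV12-1 and 124 of TRBV12-2.

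On chromosome 6 of GRCm38.p6, the RefSeq annotation places TRBV3 at 41048394 to 41048824, TRBV12-1 at 41113567 to 41114067, TRBV12-2 at 41118864 to 41119364 and TRBV31 at 41557693 to 41558371. TRBV12-1 and TRBV12-2 are neighbours within 5.80 kb with TRBV13-1 between them. TRBV31 was the 1 TRBV member downstream of TRBC2, on the far side of the joining segments from the other genes with a position.

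The files also use the joint name TRBV12-2+TRBV13-2, read here as 1 gene and written TRBV12-2/13-2. The first 140 bases from the start codon show what it stands for, with the 64-base stretch of the V exon that the joint name and TRBV13-2 share in capitals.
TRBV12-2: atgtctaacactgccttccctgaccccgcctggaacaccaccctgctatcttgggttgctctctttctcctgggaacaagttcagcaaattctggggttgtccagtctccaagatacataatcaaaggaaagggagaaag
TRBV12-2/13-2: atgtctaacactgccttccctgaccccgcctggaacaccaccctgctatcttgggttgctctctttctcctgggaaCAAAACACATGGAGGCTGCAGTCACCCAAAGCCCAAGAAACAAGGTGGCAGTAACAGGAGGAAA
TRBV13-2: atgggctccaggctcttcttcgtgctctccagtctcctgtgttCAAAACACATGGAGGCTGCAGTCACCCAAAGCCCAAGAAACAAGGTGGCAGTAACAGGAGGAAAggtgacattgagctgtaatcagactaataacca
Contigs under the joint name opened with the leader of TRBV12-2, identical over the first 79 bases, and ran on into the V exon of TRBV13-2. Of 367 cells with the joint name and 1 beta contig, 356 had a TRBV13-2 contig by sequence, 0 a TRBV12-2 contig and 11 a contig of another gene. The printed stretches were carried by 104 of 125 TRBV12-2 contigs, 320 of 356 joint-name contigs and 48 of 61 TRBV13-2 contigs. The 3 names were therefore counted apart as deposited, and joining the joint name with TRBV13-2 was an alternative.

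In CD4 clones the most used V segments were TRBV3 (11.2% ± 1.45), TRBV12-2/13-2 (10.6% ± 3.03) and TRBV19 (7.93% ± 1.65; SD, n = 4 mice), which together made 29.7%. In CD8 clones TRBV12-2/13-2 (10.3% ± 2.86), TRBV1 (7.81% ± 0.706) and TRBV12-2 (7.49% ± 1.48) made 25.6%. On average 9 TRBV names reached 5% of CD4 clones and 10 reached 5% of CD8 clones. The segments TRBV17, TRBV23 and TRBV30 were rare, with 39, 17 and 13 clones, and were not tested, since they did not reach 10 clones in 2 of the 8 columns. TRBV30 was found in 12 CD4 clones and 1 CD8 clone.

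CD4 and CD8 clones of the same mouse differed in V use. With edgeR's quasi-likelihood test and the mouse as a block, 10 of the 19 TRBV names tested passed an adjusted p of 0.05 (52.6%). Of these, 6 were higher in CD4 clones (31.6%) and 4 were lower (21.1%), and 12 had an unadjusted p under 0.05 (63.2%). The 19 names tested are all members, so this share is that of the members themselves, and alpha chain names were not tested here. The distance between 2 profiles was taken as the sum of the absolute differences between their shares divided by 2. Between the TRBV shares of CD4 and CD8 clones of a mouse it was 22.0 to 33.1 percentage points. Between mice of the same strain it was 9.44 and 14.8 points in CD4 clones and 15.0 and 20.2 points in CD8 clones, and between strains 12.6 to 16.5 points in CD4 clones and 11.2 to 20.2 points in CD8 clones.

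**Figure D1:**
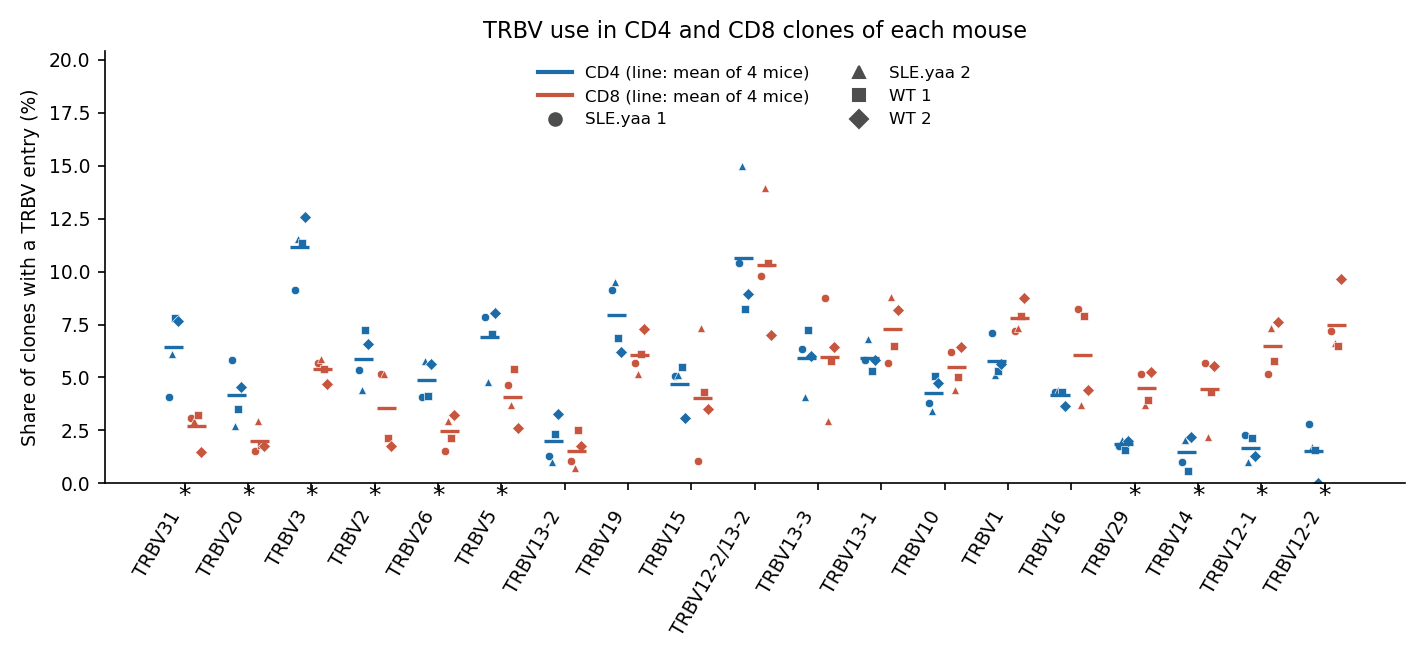
Share of clones with each TRBV name (vertical axis, percent of the clones with a TRBV entry in that mouse and type) for the 19 names tested, ordered by their CD4 to CD8 ratio; points are mice, lines are means of 4 mice, and asterisks mark names with an adjusted p under 0.05. TRBV3 lies at 9.14% to 12.6% in CD4 clones and 4.68% to 5.88% in CD8 clones, while TRBV12-2 lies at 0% to 2.79% in CD4 clones and 6.47% to 9.65% in CD8 clones.

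Among the genes higher in CD4 clones, TRBV3 made up 9.14%, 11.6%, 11.3% and 12.6% of CD4 clones and 5.67%, 5.88%, 5.40% and 4.68% of CD8 clones. All CD4 values lay above all CD8 values, and the difference was 1.09 ± 0.21 on the log2 scale (SE; edgeR adjusted p = 0.00154). TRBV31, the segment downstream of TRBC2, made up 4.06%, 6.12%, 7.83% and 7.66% of CD4 clones and 3.09%, 2.94%, 3.24% and 1.46% of CD8 clones. Its groups did not overlap either, and the log2 difference was 1.38 ± 0.32 (edgeR adjusted p = 0.00277). TRBV26 made up 4.06%, 5.78%, 4.11% and 5.66% of CD4 clones, against 1.55%, 2.94%, 2.16% and 3.22% of CD8 clones. This too was a difference without overlap, of 0.95 ± 0.28 (edgeR adjusted p = 0.0136).

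For the other 3 of these genes the types overlapped or 1 mouse went the other way. TRBV20 had 5.84%, 2.72%, 3.52% and 4.56% in CD4 clones and 1.55%, 2.94%, 1.80% and 1.75% in CD8 clones, a log2 difference of 1.14 ± 0.35 (edgeR adjusted p = 0.0151) that SLE.yaa 2 did not share. TRBV5 had 7.87%, 4.76%, 7.04% and 8.03% in CD4 clones and 4.64%, 3.68%, 5.40% and 2.63% in CD8 clones (0.83 ± 0.27, edgeR adjusted p = 0.0181). Every mouse was higher in CD4 clones, although the CD8 clones of WT 1 lay above the CD4 clones of SLE.yaa 2. TRBV2 had 5.33%, 4.42%, 7.24% and 6.57% in CD4 clones and 5.16%, 5.15%, 2.16% and 1.75% in CD8 clones (0.98 ± 0.35, edgeR adjusted p = 0.0321). Both WT mice were higher in CD4 clones by over 4 percentage points, while the SLE.yaa mice had values within 1 point of each other in both types.

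The 4 genes lower in CD4 clones included the 3 with the largest differences, the TRBV12 pair and TRBV14. TRBV12-2 made up 2.79%, 1.70%, 1.57% and 0% of CD4 clones and 7.22%, 6.62%, 6.47% and 9.65% of CD8 clones, a log2 difference of -2.47 ± 0.48 (edgeR adjusted p = 0.00154). The last CD4 value was 0 of 548 clones, which allows a share of up to 0.547%, and without WT 2 the difference was -1.74. Its neighbour TRBV12-1 made up 2.28%, 1.02%, 2.15% and 1.28% of CD4 clones and 5.16%, 7.35%, 5.75% and 7.60% of CD8 clones (-1.90 ± 0.32, edgeR adjusted p = 0.00128). For both TRBV12 genes the 4 CD4 values lay under the 4 CD8 values.

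TRBV14 made up 1.01%, 2.04%, 0.587% and 2.19% of CD4 clones and 5.67%, 2.21%, 4.32% and 5.56% of CD8 clones, and the log2 difference was -1.68 ± 0.38 (edgeR adjusted p = 0.00277). The types came closest in SLE.yaa 2, and the call was lost when SLE.yaa 1 was left out. TRBV29, which is annotated as a pseudogene in GRCm38.p6 yet is found here in clones of all 4 mice, made up 1.78%, 2.04%, 1.57% and 2.01% of CD4 clones and 5.16%, 3.68%, 3.96% and 5.26% of CD8 clones (-1.31 ± 0.29, edgeR adjusted p = 0.00277). Its 4 CD4 values lay close together and under every CD8 value. Exact 95% intervals on single shares were wide at this number of clones, for example 4.00% to 11.8% for the 14 TRBV12-2 clones among 194 CD8 clones of SLE.yaa 1, and they cover counting error only.

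The 10 calls kept their direction in every alternative tried, and DESeq2 called 3 of them, TRBV12-1, TRBV12-2 and TRBV14. Without SLE.yaa 1 the fit lost TRBV14, TRBV2, TRBV20 and TRBV5 and called TRBV1. Without WT 1 it lost TRBV2, TRBV20 and TRBV26, and without WT 2 it lost TRBV2 and TRBV5 and called TRBV16. The p-values set the CD4 to CD8 difference within a mouse against its spread over these 4 mice. In edgeR the spread of a gene is drawn toward that of all genes tested, so it does not rest on that gene alone.

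**Figure D2:**
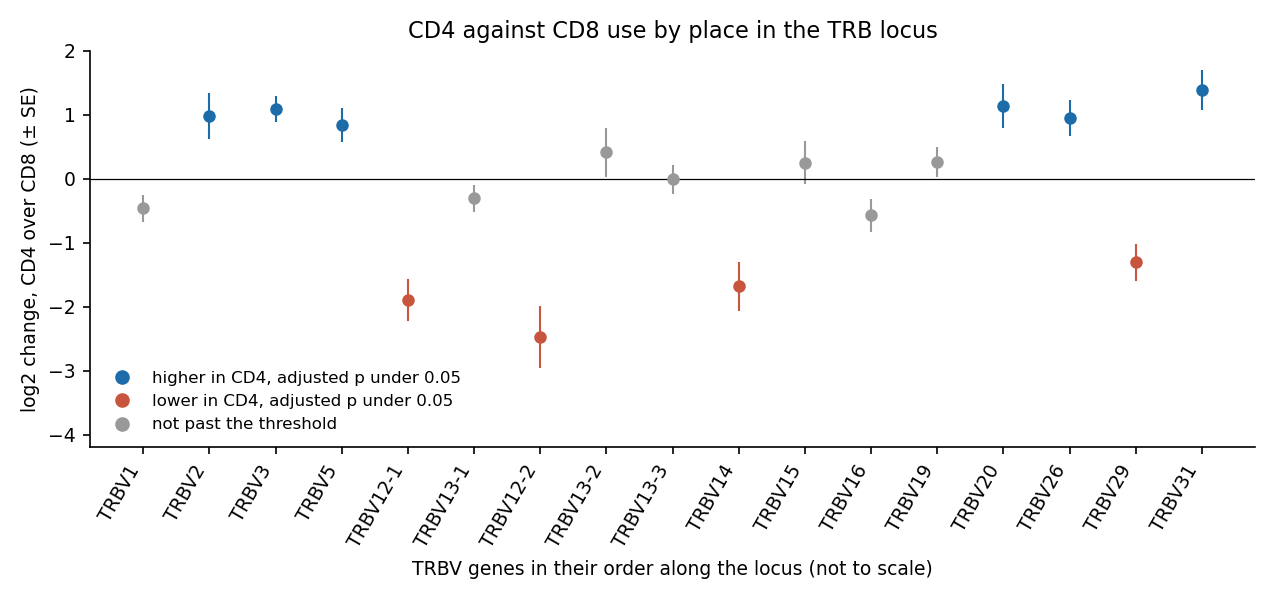
Fitted log2 difference of CD4 over CD8 use (vertical axis, with standard errors) for the 17 TRBV genes with a position, in their order along the locus (horizontal axis, not to scale). TRBV2, TRBV3, TRBV5, TRBV20, TRBV26 and TRBV31 are above 0, TRBV12-1, TRBV12-2, TRBV14 and TRBV29 are under 0, and each of these 10 has an adjusted p under 0.05.

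Segments that passed the test and segments that did not stood side by side in the locus. TRBV12-1, TRBV12-2 and TRBV14 fell in CD4 clones, while the 3 TRBV13 genes interleaved with them did not pass the test. TRBV13-1 had log2 -0.31 (edgeR adjusted p = 0.238), TRBV13-2 had 0.41 (0.374) and TRBV13-3 had -0.01 (0.968). The joint name had 10.4%, 15.0%, 8.22% and 8.94% of CD4 clones and 9.79%, 14.0%, 10.4% and 7.02% of CD8 clones (0.04, edgeR adjusted p = 0.868), with the highest value of both types in SLE.yaa 2. TRBV26 and TRBV29, next to each other among the members, were called in opposite directions.

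Of the 9 names that did not pass the test, TRBV19 had 9.14%, 9.52%, 6.85% and 6.2% of CD4 clones and 5.67%, 5.15%, 6.12% and 7.31% of CD8 clones, higher in CD4 clones of 3 of 4 mice (log2 0.27 ± 0.23, edgeR adjusted p = 0.351). TRBV16 had 4.32%, 4.42%, 4.30% and 3.65% of CD4 clones and 8.25%, 3.68%, 7.91% and 4.39% of CD8 clones (-0.57 ± 0.26, edgeR adjusted p = 0.0778). The CD8 values of TRBV16 were spread wider than its CD4 values, but each mouse had fewer CD8 than CD4 clones. The exact 95% intervals in CD8 clones overlapped, from 4.79% to 13.05% in SLE.yaa 1 and from 1.20% to 8.37% in SLE.yaa 2. TRBV13-1 had 5.84%, 6.80%, 5.28% and 5.84% of CD4 clones and 5.67%, 8.82%, 6.47% and 8.19% of CD8 clones. TRBV13-3 had 6.34%, 4.08%, 7.24% and 6.02% of CD4 clones and 8.76%, 2.94%, 5.75% and 6.43% of CD8 clones. Both TRBV13 genes overlapped between the types. TRBV15 had 5.08%, 5.10%, 5.48% and 3.1% of CD4 clones and 1.03%, 7.35%, 4.32% and 3.51% of CD8 clones, and TRBV10 had 3.81%, 3.4%, 5.09% and 4.75% of CD4 clones and 6.19%, 4.41%, 5.04% and 6.43% of CD8 clones. Which gene the name TRBV10 stands for is uncertain, since RefSeq lists TRBV10 as a pseudogene and gives Tcrb-V10 as an older name of another gene.

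TRBV1, TRBV13-2 and TRBV29 are the V segments that mouse invariant NKT cells mostly use, together with an alpha chain of TRAV11 and TRAJ18. TRBV1 had 7.11%, 5.10%, 5.28% and 5.66% of CD4 clones and 7.22%, 7.35%, 7.91% and 8.77% of CD8 clones, lower in CD4 clones of all 4 mice but not past the threshold (-0.46, edgeR adjusted p = 0.0778). The alpha pair TRAV11 and TRAJ18 was found in 22 clones, 5 of them counted as CD4 and 13 as CD8. Of these 22 clones, 10 had the joint name. Their 16 cells annotated CD4 or CD8 with a TRBV entry had Cd8a above 0 in 0 cells. The NK receptor gene Klrb1c was above 0 in 8 of the 12 annotated CD8 and in 0 of the 4 annotated CD4. Leaving these clones out gave the same 10 calls between CD4 and CD8.

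The joining segments gave no such difference. With edgeR's quasi-likelihood test 0 of 12 TRBJ genes passed (0.0%), and 2 had an unadjusted p under 0.05 (16.7%), TRBJ2-3 and TRBJ2-7. DESeq2 called 0 as well. TRBJ2-7 was the most used in both types, at 20.5%, 19.3%, 17.7% and 15.9% of CD4 clones and 20%, 22.5%, 23.2% and 20.4% of CD8 clones (log2 -0.26 ± 0.12, edgeR adjusted p = 0.283). TRBJ2-3 had 6.33%, 7.80%, 9.32% and 10.8% of CD4 clones and 4.62%, 6.52%, 7.50% and 7.29% of CD8 clones, higher in CD4 clones of all 4 mice (0.43 ± 0.18, edgeR adjusted p = 0.283). TRBJ2-7, TRBJ2-5 and TRBJ1-1 together made 41.5% of CD4 and 44.9% of CD8 clones. The distance between the TRBJ shares of CD4 and CD8 clones was 9.88 to 13.1 points within a mouse, against 6.60 to 13.8 points between mice of one type.

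**Figure D3:**
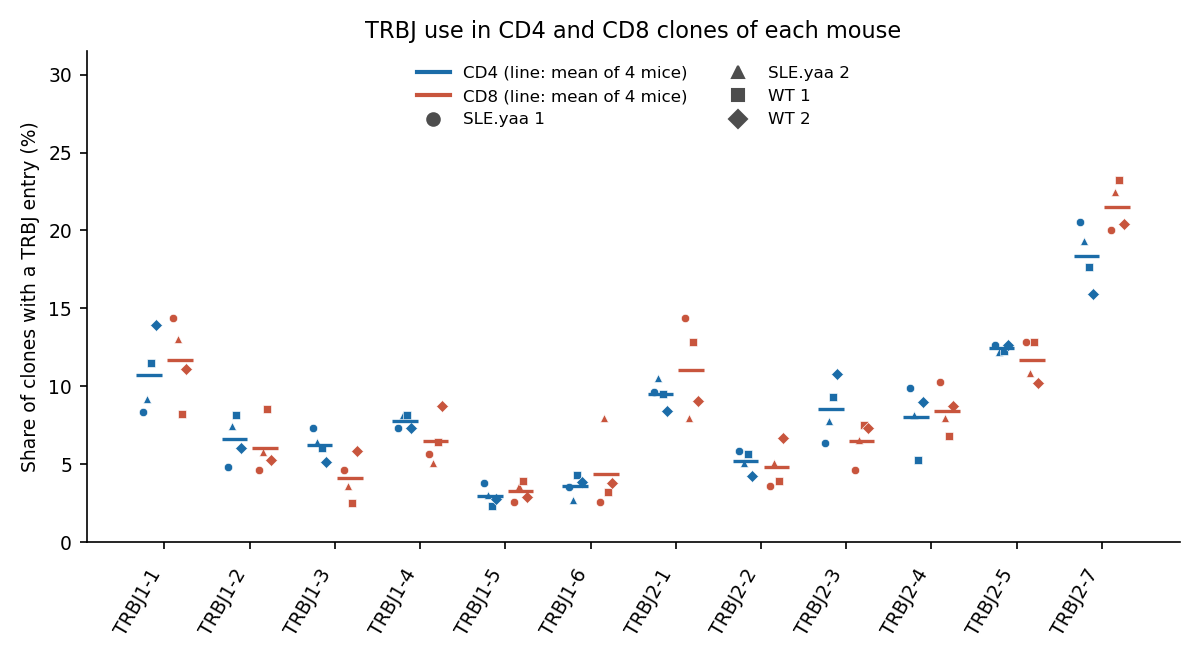
Share of clones with each TRBJ gene (vertical axis, percent of the clones with a TRBJ entry in that mouse and type) for all 12 genes; points are mice and lines are means of 4 mice. TRBJ2-7 stands highest, at 15.9% to 20.5% in CD4 clones and 20% to 23.2% in CD8 clones, and no gene has an adjusted p under 0.05.

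TRBJ2-5 had the smallest spread of the TRBJ genes in CD4 clones, at 12.7%, 12.2%, 12.2% and 12.6%, and had 12.8%, 10.9%, 12.9% and 10.2% of CD8 clones. TRBJ2-1 had 9.62%, 10.5%, 9.52% and 8.43% of CD4 clones and 14.4%, 7.97%, 12.9% and 9.04% of CD8 clones, and only SLE.yaa 2 was higher in CD4 clones. TRBJ1-3 had 7.34%, 6.44%, 6.02% and 5.13% of CD4 clones and 4.62%, 3.62%, 2.50% and 5.83% of CD8 clones (log2 0.50 ± 0.26, edgeR adjusted p = 0.284). In TRBJ1-3 the exception was WT 2. The least used segment was TRBJ1-5, at 2.33% to 3.8% of CD4 clones and 2.56% to 3.93% of CD8 clones.

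The TRBJ1 genes other than TRBJ1-1 were used by 2.98% to 7.74% of CD4 clones and 3.26% to 6.47% of CD8 clones on average, and the TRBJ2 cluster as a whole by 62.1% ± 2.29 of CD4 and 64.0% ± 2.88 of CD8 clones (SD, n = 4). The TRBJ2 share was 64.8%, 63.1%, 59.6% and 61.0% in CD4 clones and 65.6%, 60.9%, 67.1% and 62.4% in CD8 clones. CD4 and CD8 clones thus overlapped, and an exact sign-flip test over the 4 mice gave p = 0.5 (two-sided, smallest possible 0.125). On the contigs, TRBJ1 joints carried TRBC1 in 98.7% of cells and TRBJ2 joints TRBC2 in 99.9%, with no constant gene listed in the rest. Where a D segment was listed, it was TRBD1 in 98.2% of TRBJ1 joints, while TRBJ2 joints had TRBD1 in 51.8% and TRBD2 in 48.2%.

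The beta CDR3 was slightly shorter in CD4 clones. Its mean length was 41.8, 41.3, 41.5 and 41.3 nucleotides in CD4 clones and 42.2, 41.9, 41.8 and 42.0 nucleotides in CD8 clones. Every mouse was lower in CD4 clones, by 0.49 nucleotides on average, and the exact sign-flip p of 0.125 is the smallest that 4 mice allow. The median was 42 nucleotides in both types.

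The commonest V and J pairs all held TRBJ2-7. The commonest pair in CD4 clones was TRBV3 with TRBJ2-7 (40 clones, 2.29%), followed by TRBV12-2/13-2 with TRBJ2-7 (38 clones). In CD8 clones TRBV12-2/13-2 with TRBJ2-7 led (20 clones, 2.11%), followed by TRBV12-2 with TRBJ2-7 (17 clones) and TRBV12-1 with TRBJ2-7 (16 clones). Among the CD4 clones of a V gene tested, the share of TRBJ2 ran from 47.4% in TRBV13-2 (exact 95% interval 31.0% to 64.2%, 38 clones) to 71.4% in TRBV10 (60% to 81.2%, 77 clones). Among CD8 clones it ran from 37.5% in TRBV13-2 (15.2% to 64.6%, 16 clones) to 78.0% in TRBV3 (64.0% to 88.5%, 50 clones).

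Use in SLE.yaa and WT mice was compared within each cell type, with 2 mice a strain. In CD4 clones edgeR's quasi-likelihood test called 0 of 15 TRBV names (0.0%), with 4 at an unadjusted p under 0.05 (26.7%), and 0 of 12 TRBJ genes, with 2 (16.7%). Fewer names reached the minimum in CD8 clones, where it called 0 of 13 TRBV names and 0 of 11 TRBJ genes, with 0 of either at an unadjusted p under 0.05. DESeq2 called 0 in each of these comparisons. The strains differed in the state of the cells. Lef1, a transcription factor gene of naive T cells, was above 0 in 38.8% and 30.8% of CD4 cells of SLE.yaa mice, against 79.2% and 85.0% in WT mice. In CD8 cells the shares were 68.3% and 42.5% in SLE.yaa mice and 82.4% and 88.0% in WT mice. Foxp3, the regulator of regulatory T cells, was above 0 in 23.0% and 21.9% of CD4 cells of SLE.yaa mice and 7.77% and 8.15% in WT mice. In CD4 cells the naive cell gene Ccr7 was lower in both SLE.yaa mice than in both WT mice, and Ctla4, Ikzf2 and Il2ra, the other regulatory genes, were higher in both. The plasma cell gene Jchain was above 0 in 23.6% and 8.93% of CD4 cells of SLE.yaa mice and 1.14% and 0.543% in WT mice, and in 20% and 10.5% of CD8 cells of SLE.yaa mice and 0.360% and 0.877% in WT mice. Xbp1, another gene of the plasma cell list, was also higher in both SLE.yaa mice in either type, while Sdc1, the third, was above 0 in at most 0.209% of CD4 and 1.46% of CD8 cells of a mouse. The myeloid gene Cst3 was above 0 in 45.9% and 47.8% of CD4 cells of SLE.yaa mice and 28.6% and 27.7% in WT mice. Lyz2 and Csf1r, also myeloid, were higher in both SLE.yaa mice too, but in at most 4.90% of the CD4 cells of a mouse. S100a8, the last of that list, overlapped, at 2.71% and 7.49% in SLE.yaa mice and 5.68% and 2.36% in WT mice. The part of these transcripts and states in V or J use was not tested.

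The 4 TRBV names with an unadjusted p under 0.05 in CD4 clones had groups that did not overlap. Among the 15 names tested, TRBV2, TRBV10 and TRBV16 had no overlap either. Groups of 2 against 2 mice without overlap are no rare event, since 0.333 is the smallest exact permutation p they allow. TRBV12-2/13-2 had 10.4% and 15.0% in SLE.yaa mice, against 8.22% and 8.94% in WT mice (log2 0.52 ± 0.20, edgeR adjusted p = 0.118). TRBV13-2 had 1.27% and 1.02% in SLE.yaa mice and 2.35% and 3.29% in WT mice (-1.26 ± 0.48, edgeR adjusted p = 0.118). These are the names that share a V exon. Joined into 1 gene they had a log2 difference of 0.24 (edgeR adjusted p = 0.611). TRBV19 had 9.14% and 9.52% in SLE.yaa mice and 6.85% and 6.2% in WT mice (0.51, edgeR adjusted p = 0.154), and TRBV31 had 4.06% and 6.12% in SLE.yaa mice, against 7.83% and 7.66% in WT mice (-0.64, edgeR adjusted p = 0.118). Counting cells in place of clones, TRBV12-2/13-2, TRBV13-2, TRBV2 and TRBV31 passed, and with names from the contig TRBV31 passed.

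**Figure D4:**
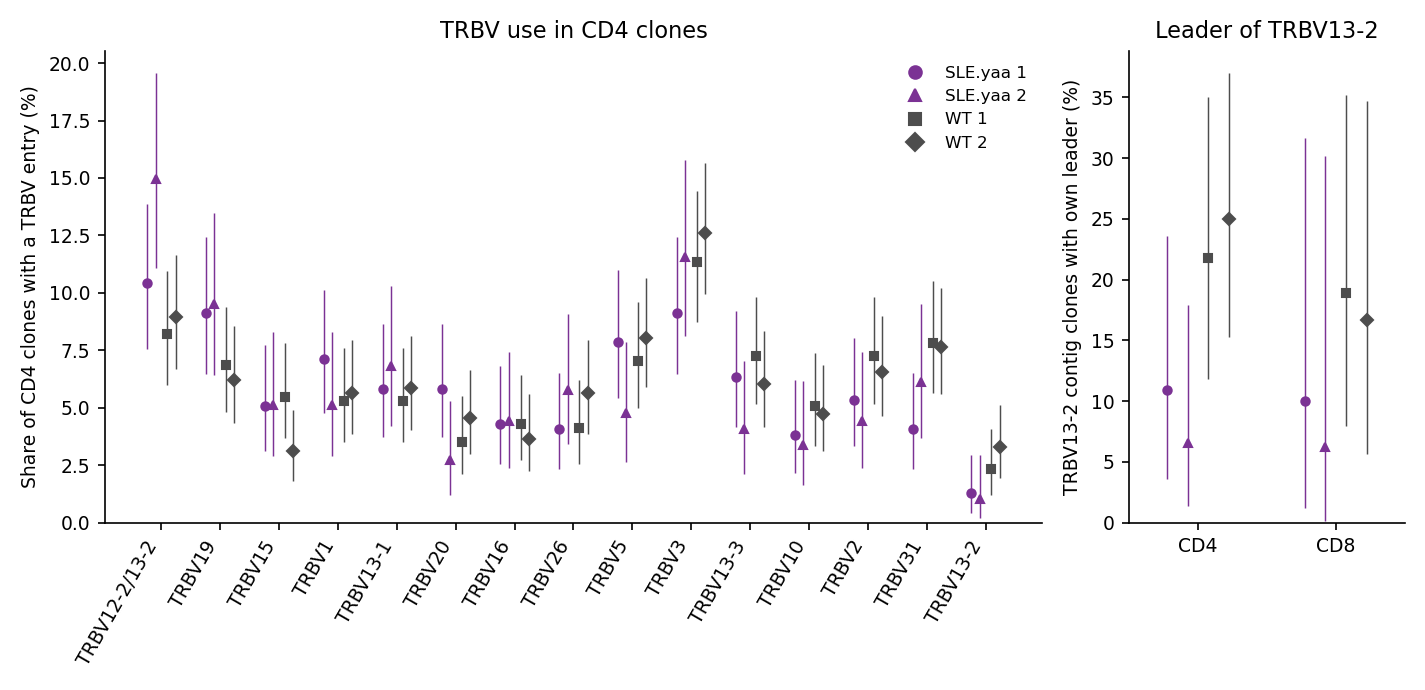
Left, share of CD4 clones with a TRBV entry (vertical axis, percent) for the 15 names tested in CD4 clones, ordered by the fitted difference; right, share of clones with TRBV13-2's own leader among clones with its V exon, in CD4 and CD8 clones. Points are mice, SLE.yaa before WT, and bars are exact 95% intervals; TRBV12-2/13-2 lies at 10.4% and 15.0% in SLE.yaa mice and at 8.22% and 8.94% in WT mice, TRBV13-2 lies the other way, and no difference between the strains has an adjusted p under 0.05.

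TRBV13-2's own leader was the less used of the 2 leaders in both strains, and its share was lower in both SLE.yaa mice than in both WT mice in either cell type. Of CD4 clones with this exon, those with TRBV13-2's own leader made up 10.9% (5 of 46) and 6.52% (3 of 46) in SLE.yaa mice and 21.8% (12 of 55) and 25% (17 of 68) in WT mice. The means were 8.70% ± 3.07 in SLE.yaa and 23.4% ± 2.25 in WT mice (SD, n = 2 each), and the exact permutation p of 0.333 is the smallest that 2 against 2 mice allow. Among CD8 clones the share was 10.0% (2 of 20) and 6.25% (1 of 16) in SLE.yaa mice. In WT mice it was 18.9% (7 of 37) and 16.7% (5 of 30), and the exact permutation p between the strains was 0.333. The single-mouse intervals overlapped in CD4 clones, from 3.62% to 23.6% in SLE.yaa 1 and from 11.8% to 35.0% in WT 1. This measure was chosen after its values had been seen.

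Of the joining segments in CD4 clones, TRBJ1-1 had 8.35% and 9.15% in SLE.yaa mice and 11.5% and 13.9% in WT mice (log2 -0.55 ± 0.18, edgeR adjusted p = 0.146), and TRBJ2-3 had 6.33% and 7.80% in SLE.yaa mice, against 9.32% and 10.8% in WT mice (-0.53, edgeR adjusted p = 0.174). In CD8 clones TRBJ1-1 stood the other way round, at 14.4% and 13% in SLE.yaa mice and 8.21% and 11.1% in WT mice. A further test, run for both families, asked if the difference between CD4 and CD8 clones differed between the strains. It called 0 of 12 TRBJ genes, with 1 at an unadjusted p under 0.05 (8.33%), which was TRBJ1-1 (log2 -1.05 ± 0.34, edgeR adjusted p = 0.0568). TRBJ1-1 passed with TMM scaling, with a dispersion trend and without the mouse block. Of the TRBV names 0 of 19 passed and 2 had an unadjusted p under 0.05 (10.5%), TRBV2 (-1.86, edgeR adjusted p = 0.0999) and TRBV12-2 (1.82, edgeR adjusted p = 0.394). For TRBV12-2 this value was 0.46 without WT 2 (edgeR adjusted p = 0.937), and it passed without WT 1 (edgeR adjusted p = 0.0106), where the 1 WT mouse left was WT 2, with 0 CD4 clones of this gene, so that its fitted size is no bound. By DESeq2 0 passed in either family. The TRBJ2 share was 63.9% ± 1.24 in SLE.yaa and 60.3% ± 0.974 in WT CD4 clones (SD, n = 2 each; exact permutation p = 0.333), and 63.3% in SLE.yaa and 64.8% in WT CD8 clones (p = 0.667 by the same exact test).

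Expanded clones, those with at least 2 cells in the receptor table, came mostly from SLE.yaa mice. They made up 18.5%, 17.7%, 1.37% and 0.730% of CD4 clones with a TRBV entry and 10.3%, 14.0%, 1.08% and 0.585% of CD8 clones, 136 and 44 clones in all. Both SLE.yaa mice stood above both WT mice in each type. The test of expanded against single clones used all 4 mice, of which the WT mice gave 11 expanded CD4 and 5 expanded CD8 clones. In the SLE.yaa mice Lef1 was above 0 in 30.4% and 26.7% of expanded CD4 cells and 43.0% and 32.6% of single CD4 cells, and in 25.8% and 19.4% of expanded CD8 cells and 75.9% and 49.6% of single CD8 cells. The chemokine gene Ccl5, an effector marker, was above 0 in 90.3% and 100% of expanded CD8 cells and 46.6% and 82.9% of single CD8 cells. The part of these states in V or J use was not tested either.

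In CD4 clones, with the mouse as a block, edgeR's quasi-likelihood test called 0 of 15 TRBV names and 0 of 12 TRBJ genes between expanded and single clones (0.0% each), with 0 at an unadjusted p under 0.05. DESeq2 called 0 in both. Most expanded clones came from SLE.yaa mice and most single clones from WT mice, so shares are given within the SLE.yaa mice, with their clones added up. There TRBV12-2/13-2 had 19 of 125 expanded clones (15.2%) and 11.7% of single clones, higher among expanded clones in both mice. TRBV26 had 8% of expanded and 4.09% of single clones, and TRBV5 had 9.60% of expanded and 5.86% of single clones. Both of these were higher among expanded clones in SLE.yaa 1 only. In SLE.yaa 1 TRBV26 had 9.59% of expanded and 2.80% of single clones, and TRBV5 had 13.7% and 6.54%. In SLE.yaa 2 TRBV26 had 5.77% and 5.79%, and TRBV5 had 3.85% and 4.96%. TRBV13-2 was found in 0 of 125 expanded clones, which allows a share of up to 2.4%, and in 1.42% of single clones, so that no difference was detectable at this number of clones. None of these passed the test. TRBJ2-7 made up 27.0% of expanded and 18.4% of single CD4 clones of the SLE.yaa mice, higher among expanded clones in both SLE.yaa mice (log2 0.51 ± 0.21, edgeR adjusted p = 0.849).

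In CD8 clones 1 of 13 TRBV names passed (7.69%), with 2 at an unadjusted p under 0.05 (15.4%), and 0 of 11 TRBJ genes, with 1 (9.09%). The call was TRBV3, at 15.0% (3 of 20) and 21.1% (4 of 19) of expanded clones and 4.6% and 3.42% of single clones in SLE.yaa 1 and SLE.yaa 2. Over all mice it made up 8 of 44 expanded clones (18.2%) and 4.64% of 906 single clones (log2 2.08 ± 0.65, edgeR adjusted p = 0.0368). The call rests on 8 clones. Of these, 1 was a WT 1 clone of 15 cells, of which 13 were annotated CD4 and 1 CD8. The value was 0.77 (adjusted p = 0.445) with TMM factors and 0.53 (adjusted p = 0.978) when only CD8 cells counted toward clone size, and the call was also lost at values of 1.86 to 2.08 under 6 alternatives named in the closing section. Without SLE.yaa 1 it was 2.38 (edgeR adjusted p = 0.106) and without SLE.yaa 2 it was 1.77 (edgeR adjusted p = 0.273). Without either WT mouse TRBV3 did not reach the minimum number of clones and was not tested. In the SLE.yaa mice TRBJ2-3 was found in 0 of 39 expanded CD8 clones, which allows up to 7.69%, and in 6.12% of single clones. TRBV29, TRBV5 and TRBV31, also at 0 of 39, made up 5.15%, 4.81% and 3.44% of single clones there, each under that limit. Over all mice the unadjusted edgeR p was 0.0269 for TRBJ2-3 (adjusted p = 0.296) and 0.0421 for TRBV29 (adjusted p = 0.274). Neither passed, and TRBV5 and TRBV31 did not reach the minimum number of clones and were not tested.

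**Figure D5:**
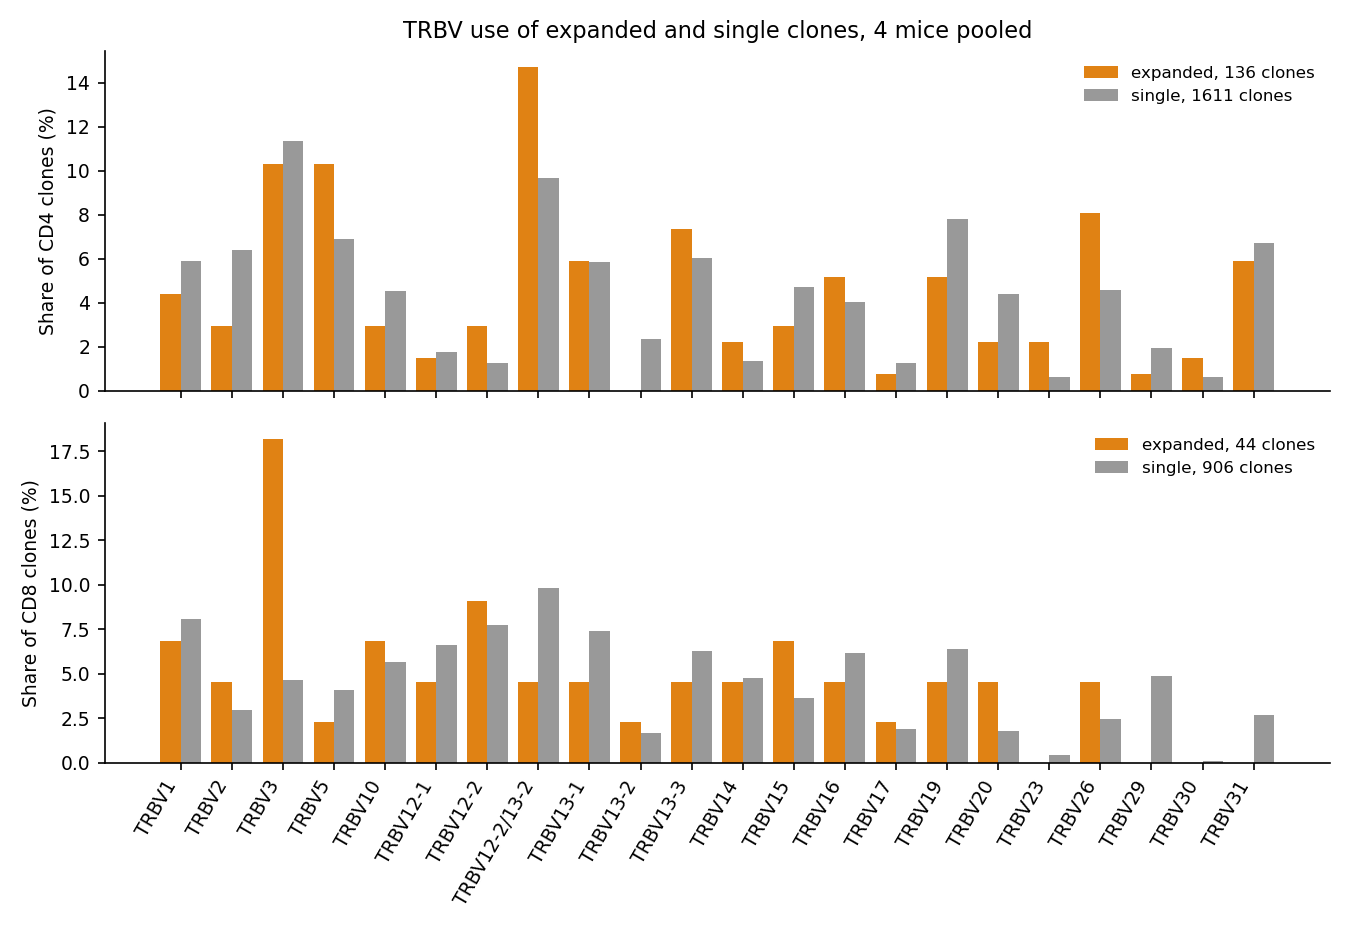
Share of clones (vertical axis, percent of the expanded or single clones with a TRBV entry, clones of 4 mice pooled, so without error bars and with most expanded clones from SLE.yaa and most single clones from WT mice) for the 22 TRBV names, with CD4 clones above and CD8 clones under them. Expanded clones are drawn left of single clones; TRBV3 has the tallest bar in CD8 clones, at 18.2% of 44 expanded clones and 4.64% of 906 single clones.

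TRBJ2 segments made up 67.6% and 71.2% of expanded CD4 clones and 64.2% and 61.3% of single CD4 clones in SLE.yaa 1 and SLE.yaa 2. Among CD8 clones they made up 80.0% and 68.4% of expanded and 64.0% and 59.7% of single clones. Both mice were higher among expanded clones in both types, by 6.62 and 12.4 percentage points on average, and the exact sign-flip p of 0.5 is the smallest that 2 mice allow.

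The beta CDR3 sequences of the 4 largest clones are printed because each defines 1 clone, in lower case throughout.
SLE.yaa 1, 19 cells, TRBV12-2/13-2 and TRBJ2-5: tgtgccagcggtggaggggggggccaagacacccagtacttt
WT 1, 15 cells, TRBV3 and TRBJ2-4: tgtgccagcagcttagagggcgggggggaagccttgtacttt
SLE.yaa 2, 10 cells, TRBV26 and TRBJ1-5: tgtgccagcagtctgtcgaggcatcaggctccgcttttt
SLE.yaa 1, 9 cells, TRBV5 and TRBJ2-1: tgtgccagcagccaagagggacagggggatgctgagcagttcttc
The first clone had 11 CD4 cells and 8 cells outside the expression table, and the WT 1 clone had 13 CD4 cells and 1 CD8 cell. The clone of SLE.yaa 2 had 8 CD8 cells, and the last had 4 CD4 cells. These 4 clones used 4 different V and 4 different J segments, whereas 3 of the 8 largest used TRBV3 and 3 of the 8 used TRBJ2-4. Of the 3655 clones, 3460 had 1 cell, 136 had 2 cells and 59 had 3 or more.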

How the data were processed

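Counts of clones were taken from the deposited T cell receptor table, in which the authors give V, J and CDR3 names, sequences, clone IDs and mouse for each cell; such text and label columns are of another kind than measurements. Cell types came from the authors' annotation in the deposited cell table, which also holds UMI counts per cell. Marker genes were read from the deposited expression table, whose values from the authors are natural log (ln) of 1 plus a depth-adjusted number, and a gene above 0 counts as present. Cell Ranger 5.0.0, Seurat 4.0.0 and GRCm38 (mm10) are named in the submitters' processing notes, and their settings were not given in the sources used here.

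Clones per gene, mouse and type were tested with edgeR 4.0.16 (R 4.3.3, glmQLFit and glmQLFTest, two-sided), with all clones of a column as library size, no other scaling and a dispersion without a trend. Benjamini-Hochberg adjustment ran over all genes tested, those with at least 10 clones in at least 2 columns, and the threshold was 0.05. The mouse was a block between CD4 and CD8 clones and between expanded and single clones, since those come from 1 spleen. Standard errors were derived from the quasi-likelihood F statistic. TRBJ2 shares, CDR3 lengths and leader shares were compared with exact sign-flip or permutation tests over mice (Python 3.11.15, pandas 2.3.3, scipy 1.17.1). The scripts were tested on simulated data. Single shares have exact Clopper-Pearson 95% intervals, limits for a count of 0 are 3 counts, and both cover counting error only. Figures were drawn with matplotlib 3.10.9.

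Alternatives were TMM factors, no filter, a dispersion trend, DESeq2 1.42.0, other rules for clones, types and expanded clones, cells in place of clones, no block, and each mouse left out. Names from the beta contig, matched by 25-base words, types by Cd4, Cd8a and Cd8b1, the joint name merged with TRBV13-2, and SLE.yaa mice alone were added after the data had been seen. The listed TRBV and TRBJ names equalled the contig's name in 98.5% and 98.9% of the cells with a named contig, leaving out the joint name. Named in full were genes past the threshold, the 3 most used per type, the 2 with the largest change per comparison, and the NKT-linked, TRBV12, TRBV13, TRBJ1 and TRBJ2 lists; markers for 32 genes were named, of which 31 were measured. The members and lists were chosen with earlier results of these data known. No doublet caller was run here, and the labels do not say how the authors treated doublets. Positions are from RefSeq, and TRBV10 and the joint name have none here. Replicate numbers were given in accession order and do not pair mice of different strains.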

Additional observations from a re-analysis of the deposited data

Results flagged for a closer look

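Among 66 sets of 4 mice, the shares of the genes tested, the TRBJ2 share and the CDR3 length in each cell type, 3 held a mouse set apart from the others by more than Dixon's critical value for 4 samples, which sets the gap to the nearest mouse against the range, and chance sets apart about 1 in 20. TRBV15 made up 3.1% of CD4 clones in WT 2 and 5.08% to 5.48% in the other mice. TRBV16 made up 3.65% of CD4 clones in WT 2 and 4.30% to 4.42% in the others. TRBV31 made up 1.46% of CD8 clones in WT 2 and 2.94% to 3.24% in the others. All 3 were low values of WT 2, the mouse with the most clones in both types. Without it the log2 difference of TRBV31 between CD4 and CD8 clones was 0.99 (edgeR adjusted p = 0.0186), against 1.38 with it.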

How the results depend on the processing

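Direction was kept under every alternative for the 10 TRBV names called between CD4 and CD8 clones, of which DESeq2 called 3 and fits without 1 mouse called 7 to 10 names. The 1 TRBV call between expanded and single CD8 clones was lost, leaving 0, under TMM factors, DESeq2, expansion by cells of the type and type by transcripts, with smaller values, and under no filter, a dispersion trend, the majority type, CDR3-defined clones, expansion at 3 cells and names from the contig, where TRBV3 kept values of 1.86 to 2.08. The count was also 0 with SLE.yaa mice alone and 0 to 0 without 1 mouse, but with SLE.yaa mice alone or without either WT mouse TRBV3 did not reach the minimum and was not tested. Between strains in CD4 clones, cells in place of clones gave 4 TRBV and 2 TRBJ calls and names from the contig 1 TRBV call. For the difference between the strains, the fit with no replicate block gave 1 TRBV call (TRBV2) and 1 TRBJ call, TMM factors and a dispersion trend gave 1 TRBJ call each, and fits without 1 mouse gave 0 to 1 TRBV calls (TRBV12-2, without WT 1). Without 1 mouse 0 to 1 TRBJ genes were called between expanded and single CD8 clones.

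Signs changed only for genes not called. Between CD4 and CD8 clones, TRBV12-2/13-2 was -0.0181 under DESeq2 and -0.0748 to 0.184 without 1 mouse. TRBV13-3 was 0.0279 with CDR3-defined clones, 0.0445 with cells, 0.0792 with names from the contig, 0.18 by transcripts and -0.14 to 0.15 without 1 mouse. TRBJ2-5 was -0.0369 under DESeq2, -0.00749 by transcripts and -0.0025 to 0.17 without 1 mouse, and TRBJ1-1 was -0.22 under DESeq2, -0.0904 by transcripts, -0.0145 with no replicate block and -0.19 to 0.22 without 1 mouse. TRBV13-2 was 0.23 with names from the contig and 0.24 merged between strains in CD4 clones, and 0.20 and 0.18 between expanded and single clones. TRBJ1-6 was -1.74 to 0.27 without 1 mouse in the difference between the strains. The causes were not tested, beyond that the contig names and the merging put the joint name and TRBV13-2 under 1 name. No paired analysis was possible between strains because replicate numbers, given in accession order, pair no mice.

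The counts of clones limit the precision: 1 clone is 0.735% of the CD8 clones of SLE.yaa 2, and expanded clones of WT mice number 11 in CD4 and 5 in CD8. The type by transcripts matched the annotation in 67.4% of CD4 and 89.2% of CD8 cells with a TRBV entry, and most others had neither or both kinds of transcript.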

Other observations

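Beta chains were seldom shared between mice. Of 3348 beta CDR3 peptides in 3428 clones of all cell types, 38 occurred in at least 2 mice, 2 in 3 mice and 0 in all 4. Among nucleotide sequences, 11 occurred in 2 mice and 0 in 3.

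The peptide found in the most clones was carried by 6 clones in 3 mice, 4 in SLE.yaa 1, 1 in SLE.yaa 2 and 1 in WT 2, and was chosen after its values were seen. It was encoded by 3 nucleotide sequences, printed with the 4 bases at which they vary in capitals.
Clone sequence A: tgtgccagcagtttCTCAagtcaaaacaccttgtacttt
Clone sequence B: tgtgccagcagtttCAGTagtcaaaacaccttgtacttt
Clone sequence C: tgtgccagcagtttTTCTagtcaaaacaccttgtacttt
All 6 clones joined TRBV14 to TRBJ2-4, a pair found in 12 clones in all, and all 6 listed TRAV7-4 or TRAV7D-4 with TRAJ32 for the alpha chain. In 4 of the 6, from 3 mice, the alpha CDR3 was the same down to its nucleotides. The clones held 13 cells, of which 7 were annotated CD4, 0 CD8 and 6 were outside the expression table, although TRBV14 had a lower share of CD4 than of CD8 clones. The largest had 6 cells in SLE.yaa 1.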
